A study of Mus musculus with 4 samples.

Results

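The 45 genes described here encode the enzymes and carriers of central carbon metabolism: 21 of glycolysis with glucose uptake and lactate export, 7 of the pentose phosphate pathway, and 17 of pyruvate dehydrogenase and the tricarboxylic acid (TCA) cycle. They were taken by gene symbol from the 27179 rows of the count table, and each symbol matched 1 row. The rule uses no measured value, although the list was drawn up with earlier results of these data known. The RNA came from group 2 innate lymphoid cells (ILC2s), lymphocytes without antigen receptors that make type 2 cytokines and amphiregulin, sorted from the large intestine of C57BL/6 mice. All libraries came from cells grown for 5 days in IMDM medium with 10 ng/mL each of the cytokines IL-33, IL-25, IL-7 and IL-2. The cells then received vehicle (2 libraries, replicates 1 and 2) or deoxycholic acid (DCA) at 100 μM (2 libraries, replicates 1 and 2). DCA is a secondary bile acid that gut bacteria make from cholic acid. The study's methods give C57BL/6J mice of 6 to 8 weeks, while their description of the study design gives a wider age range. This comparison involved no transgene or deletion. For sex, the methods name both in a general statement but only males for this strain in another. The exposure is given as 16 h in the series record and as 24 h in the study's methods. As a model the design covers cytokine-expanded cells in culture, at 1 dose and 1 time. The labels do not say whether the replicates were separate cultures or mice, so the p-values measure the spread between these libraries, which may be technical.

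Glycolysis splits glucose into pyruvate in the cytosol, with hexokinase and phosphofructokinase as its regulated steps, and lactate dehydrogenase lets it run on by turning pyruvate into lactate. The pentose phosphate pathway branches from glucose 6-phosphate and yields NADPH and ribose. Pyruvate dehydrogenase feeds pyruvate carbon as acetyl-CoA to the TCA cycle in mitochondria, which supplies electrons for respiration. Lymphocytes that divide and secrete cytokines are known to take up glucose at a high rate.

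The libraries held 35838342, 26564059, 32102232 and 244165712 counts (vehicle 1, vehicle 2, DCA 1, DCA 2), so DCA replicate 2 was by far the deepest. At these depths a count of 0 allows a level of up to 0.0819, 0.114, 0.0928 and 0.0125 CPM (counts in a library scaled to a total of 1000000), which covers counting error only. All 10 ILC2 markers checked (among them Gata3, Il1rl1 and Il17rb) reached 1 CPM in some library and 9 did in every library, the exception being Thy1 at 0 to 4.24 CPM. The summed ILC2 marker level was 7366, 7139, 7391 and 7435 CPM, with Id2 the largest term. Within this sum 4 of the 10 markers had libraries that did not overlap, beside 33.4% of all genes tested. Klrg1, a marker of the sort, was at 687, 677, 463 and 357 CPM and Il1rl1, the IL-33 receptor, at 831, 875, 598 and 534 CPM, both lower in DCA. Il2ra was at 1072, 1228, 1613 and 1588 CPM and Il7r at 373, 349.6, 582 and 462 CPM, both higher in DCA. Summed T cell markers lay at 11.3 to 26.6 CPM, mostly through Cd3g (11.8, 25.5, 21.3 and 10.5 CPM), with Cd4 and Cd8a at 0 counts. B cell markers lay at 55 and 47.1 CPM in vehicle and 37.7 and 44.6 CPM in DCA, with Pax5 at 0. Almost all of that was Cd79b, at 55, 47.1, 37.4 and 44.6 CPM. Epithelial markers lay at 7.73 to 13.5 CPM with Krt20 at 0. Of these, Epcam was at 7.61, 6.94, 3.99 and 7.87 CPM and Krt18 at 0.218, 6.4, 3.25 and 1.09 CPM. Mast cell and basophil markers lay at 0.35 to 4.7 CPM, with Mcpt8 at 3.49, 4.61, 4.51 and 0 CPM and Mcpt1, Fcer1a and Ms4a2 at 0. ILC3 markers lay at 0 to 1.48 CPM, the highest through Il17a in DCA replicate 1, with Il22 and Il23r at 0. The macrophage list was also lower in both DCA libraries, at 24.6 and 23.9 CPM in vehicle and 7.3 and 10.2 CPM in DCA, almost wholly through Cd68 (24.2, 23.9, 7.3 and 10.2 CPM), with 1 of its 5 markers at 1 CPM or more in any library and Csf1r at 0 in every library. The part of these marker differences in the results below was not tested. In bulk RNA, fewer cells of a type and less RNA per cell cannot be told apart.

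Promoter letters are shown because the hypoxia-inducible factors, known activators of glycolytic genes, can recognize ACGTG as a core. Other forms of their core were not searched. The 250 bases before the RefSeq transcript starts (GRCm38.p6) were searched for ACGTG on both strands. It was present in 5444 of 32851 windows of all genes (16.6%), and 4998 of 27025 genes (18.5%) had it in any of their windows. Of the glycolysis members 11 of 20 had it (55%), of the TCA members 4 of 16 (25%), and of the pentose phosphate members 0 of 7. For Slc2a3 and Idh3a no window was used here. The windows below belong to Hk2 and Slc16a3, which stood on opposite sides of the vehicle libraries, and to Ldha, the member with the highest level. Each is written 5′ to 3′ on the gene's strand, with every ACGTG or its reverse complement CACGT in capitals, and the palindrome CACGTG counts on both strands. A match is a description of letters and not a binding site.
Hk2: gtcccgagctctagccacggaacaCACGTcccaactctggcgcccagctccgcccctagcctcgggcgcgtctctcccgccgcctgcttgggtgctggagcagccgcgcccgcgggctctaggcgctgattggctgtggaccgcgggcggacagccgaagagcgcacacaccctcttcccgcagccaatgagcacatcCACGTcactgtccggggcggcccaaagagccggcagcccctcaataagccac
Ldha: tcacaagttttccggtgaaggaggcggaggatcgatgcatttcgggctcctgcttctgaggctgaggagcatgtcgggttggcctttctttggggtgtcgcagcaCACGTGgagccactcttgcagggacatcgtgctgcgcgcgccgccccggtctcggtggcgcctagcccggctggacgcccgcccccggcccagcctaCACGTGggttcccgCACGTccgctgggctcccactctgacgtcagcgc
Slc16a3: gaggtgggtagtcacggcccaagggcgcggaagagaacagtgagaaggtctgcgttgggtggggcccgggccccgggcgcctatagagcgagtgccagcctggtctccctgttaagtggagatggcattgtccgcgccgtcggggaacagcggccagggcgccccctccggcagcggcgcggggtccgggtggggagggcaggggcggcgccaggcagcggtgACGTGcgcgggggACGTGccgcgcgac
The Hk2 window is chr6:82774455-82774704 on the minus strand, just outside the gene, and holds 2 matches. The Ldha window is chr7:46845554-46845803 on the plus strand and holds 5 matches, while the window of a second Ldha start holds 0. The Slc16a3 window is chr11:120948817-120949066 on the plus strand, with 2 matches. The Ldha and Slc16a3 windows lie within the annotated gene, where longer transcripts start further upstream, and none of the 3 windows overlaps an annotated exon.

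Levels are given below as CPM scaled by the trimmed mean of M values (TMM), always in the order vehicle 1, vehicle 2, DCA 1, DCA 2. A log2 fold change is DCA against vehicle and positive where DCA was higher. Its standard error (SE) was computed from log2(CPM + 1) of the 2 libraries in each treatment. No member passed an adjusted p of 0.05 in the edgeR quasi-likelihood test over 11184 genes (0 of 45), nor did any gene of the table (0%). At an unadjusted p under 0.05 edgeR gave 0 of 45 members, against 477 genes in all (4.27%). DESeq2 gave 0 members at the adjusted threshold, against 1.13% of all genes, and 5 at the unadjusted one, against 7.01%. With limma these were 0 members against 0% and 1 member against 4.64%. The DCA libraries both exceeded the higher vehicle library for 11 members, against 18.8% of all genes tested, and both fell short of the lower one for 9 members, against 14.5%. The libraries of the other 25 members overlapped, and for 23 of these the sign of the difference turned when 1 library was left out, Pgd and Pkm being the exceptions. With 2 libraries a treatment, overlap in itself makes such a turn likely, and the share over all overlapping genes was not counted. A difference under 0.5 in size on the log2 scale was measured for 36 of the 45 members, beside 6738 of the 11184 genes tested. For 2 members (Slc16a3 and Rpia) it was 1 or more in size, beside 2022 of the 11184, with Idh1 just under it. The median of the members was 0.036, beside 0.012 over all genes tested.

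**Figure D1:**
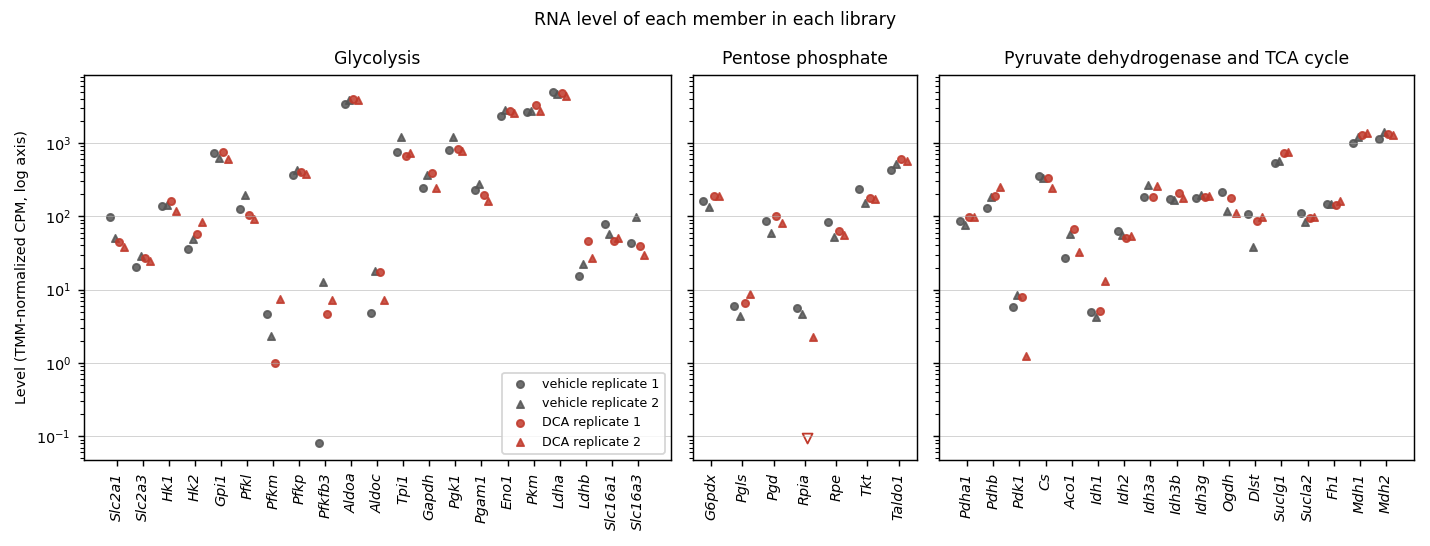
Level of each of the 45 members in each library, in TMM-normalized CPM on a log axis, ordered by pathway step; circles are replicates 1, triangles replicates 2, gray is vehicle and red is DCA. The open triangle marks a count of 0 (Rpia in DCA replicate 1), drawn at the level that 0 counts allow, 0.0928 CPM. Levels span from Pfkfb3 at 0.0819 CPM in vehicle replicate 1 to Ldha at 4955 CPM, and for most members the 4 points lie close together.

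Summed over their members, the 3 pathways differed little between treatments. The glycolysis genes summed to 17105 and 18851 CPM in vehicle and 16924 to 18662 CPM in DCA, so that the libraries interleaved and the ratio of the means was 0.99. The pentose phosphate genes summed to 1003 and 916 CPM in vehicle and to 1135 and 1082 CPM in DCA, a ratio of 1.16. The pyruvate dehydrogenase and TCA genes summed to 4461 and 4916 CPM in vehicle and to 5180 and 5226 CPM in DCA, a ratio of 1.11. Both DCA libraries exceeded vehicle in the last 2 pathways, where the means ± SD (n = 2) were 959.6 ± 61.8 and 1109 ± 37.3 CPM for pentose phosphate and 4688 ± 322 and 5203 ± 32.5 CPM for TCA genes. No test was run on these sums. A few abundant genes set each sum: Ldha, Aldoa, Pkm, Eno1 and Pgk1 gave 82.1% of the glycolysis sum in vehicle, and Mdh2, Mdh1, Suclg1, Cs and Idh3a gave 74.6% of the TCA sum.

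**Figure D2:**
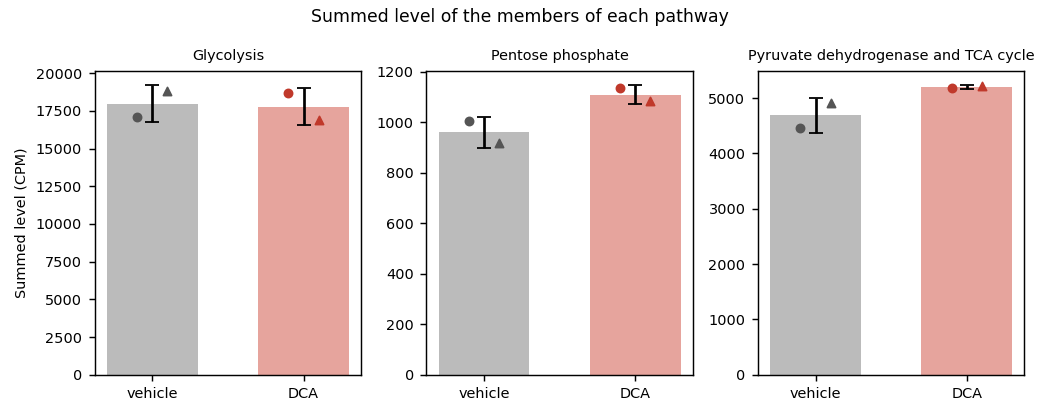
Summed level (CPM) of the members of each pathway; bars are means of 2 libraries, error bars are ± SD, and points are the libraries (circles replicates 1, triangles replicates 2). The glycolysis sums interleave between treatments, while both DCA points lie above both vehicle points in the other panels.

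Glycolysis genes as a group showed no common direction. Of the 21 members 10 had a log2 fold change above 0 and 11 below, with a median of -0.0056 and a range from -1.04 (Slc16a3) to 0.94 (Ldhb). The DCA libraries were both higher than vehicle for Hk2 and Ldhb, and both lower for Slc2a1, Pfkl, Tpi1, Pgam1, Slc16a1 and Slc16a3. That is 9.52% and 28.6% of the 21, beside 18.8% and 14.5% over all genes. The median was -0.17 without vehicle replicate 1 and 0.046 without vehicle replicate 2. The smallest unadjusted p was 0.0515 (edgeR, Pfkl), and the edgeR adjusted p was 0.998 for every member, pentose phosphate and TCA genes included.

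Glucose enters through Slc2a1 (GLUT1) and Slc2a3 (GLUT3). Slc2a1 was measured at 99.2, 50.1, 44.3 and 38.6 CPM, a log2 fold change of -0.85 with an SE of 0.49 (edgeR unadjusted p = 0.0816). Vehicle replicate 1 stood apart from the other 3 libraries, and without it the log2 fold change was -0.30. Slc2a3 stayed within 20.4 to 28.5 CPM (20.4, 28.5, 27.1 and 24.5), and its log2 fold change was 0.078 with an SE of 0.24. Per kilobase of exon Slc2a1 was the higher of the transporters, at 22.9 CPM per kb against 6.17 CPM per kb in vehicle.

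Hexokinase traps glucose in the cell as glucose 6-phosphate. Its widely expressed form Hk1 was at 137, 144, 163 and 119.6 CPM (log2 fold change 0.012, SE 0.23), and the DCA libraries lay on either side of the vehicle libraries. Its inducible form Hk2 was at 35.4, 49.6, 57 and 84.8 CPM, a log2 fold change of 0.74 with an SE of 0.37 (edgeR unadjusted p = 0.0884). Both DCA libraries were above vehicle, DCA replicate 2 the most, and the log2 fold change was 0.42 without that library. Gpi1, which isomerizes glucose 6-phosphate, was at 602 to 751 CPM with a log2 fold change of -0.0056.

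Phosphofructokinase commits the sugar to glycolysis and is built from liver (Pfkl), muscle (Pfkm) and platelet (Pfkp) subunits. Pfkl (chr10:77986947-78009807, minus strand) was at 127, 196, 104 and 91.7 CPM, with a log2 fold change of -0.72, an SE of 0.33 and the smallest unadjusted p of all 45 members (edgeR, 0.0515). Both DCA libraries lay below vehicle, and the limma 95% interval on the log2(CPM + 1) scale ran from -1.36 to -0.0042. Without vehicle replicate 2, the highest library, the log2 fold change was -0.37. Pfkp, the most abundant subunit per kilobase, was at 366, 422, 398 and 374 CPM (log2 fold change -0.03, SE 0.11). Its limma 95% interval was -0.53 to 0.47. Pfkm was sparse, at 4.69, 2.32, 0.989 and 7.42 CPM, and the DCA libraries enclosed the vehicle libraries. Its log2 fold change of 0.26 (SE 1.11) was -1.82 without DCA replicate 2. Pfkfb3, which makes the activator fructose 2,6-bisphosphate, had counts of 3, 331, 148 and 1727, or 0.0819, 12.6, 4.58 and 7.2 CPM. Vehicle replicate 1 alone was near 0 for Pfkfb3, and the log2 fold change of -0.11 (SE 1.85) turned to 6.15 if vehicle replicate 2 was left out and to -1.12 if vehicle replicate 1 was.

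Aldolase cleaves the hexose into triose phosphates. Aldoa was at 3445, 3893, 3976 and 3876 CPM (log2 fold change 0.10, SE 0.09), 3 of the 4 libraries being nearly level. Aldoc, the brain form, was at 4.72, 17.9, 17.6 and 7.22 CPM, so that replicates differed more than treatments (log2 fold change 0.13, SE 1.04). Without DCA replicate 1 it was -0.66 and without vehicle replicate 2 it was 1.39. The triose phosphate isomerase Tpi1 was at 748, 1200, 661 and 734 CPM, a log2 fold change of -0.48 with an SE of 0.35. Vehicle replicate 2 set most of that difference, which was -0.10 without it.

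Gapdh, the oxidizing step, was at 243, 361, 394 and 242 CPM, with overlapping libraries (log2 fold change 0.075, SE 0.45). Of the 100-base windows along its transcript with the longest coding part, 85.8% also occur letter for letter in transcripts of 84 other annotated genes. Its counts therefore depend on how reads with several matches were treated, which is not stated in the sources used here. The part of these copies in its level was not tested. Pgk1, the first ATP-making step, was at 806, 1213, 828 and 785 CPM (log2 fold change -0.32, SE 0.30), and 67% of its windows occur in other genes. Without vehicle replicate 2 its log2 fold change was 0.0012. Pgam1, the mutase, was at 228, 273, 195 and 163 CPM, both DCA libraries below vehicle (log2 fold change -0.48, SE 0.18, edgeR unadjusted p = 0.0853), with 39.7% of its windows shared. Eno1, the enolase, was at 2370, 2811, 2765 and 2546 CPM (log2 fold change 0.036, SE 0.14), with 59% shared. The differences of these 4 genes are uncertain for that reason.

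Pkm, pyruvate kinase, makes the final ATP of the pathway. Its levels were 2645, 2764, 3317 and 2718 CPM, where DCA replicate 1 was high and DCA replicate 2 lay between the vehicle libraries (log2 fold change 0.16, SE 0.15). Ldha, the lactate dehydrogenase subunit with 5 motif matches in the window above, was at 4955, 4613, 4826 and 4396 CPM. It had the highest level per kilobase of all members in both treatments (2524 CPM per kb in vehicle and 2433 CPM per kb in DCA). Its log2 fold change was -0.053 with an SE of 0.085, and the limma 95% interval ran from -0.59 to 0.49. Ldhb, the heart subunit, was at 15.5, 22.3, 45.8 and 26.8 CPM, higher in both DCA libraries. The log2 fold change of 0.94 had an SE of 0.45 (edgeR unadjusted p = 0.0994) and was 0.50 without DCA replicate 1.

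Lactate leaves the cell through the monocarboxylate transporters Slc16a1 (MCT1) and Slc16a3 (MCT4). Slc16a1 was at 77.5, 57.3, 45.8 and 50.6 CPM, lower in both DCA libraries (log2 fold change -0.49, SE 0.23, edgeR unadjusted p = 0.181), and it was -0.27 without vehicle replicate 1. Slc16a3 was at 43.1, 98.9, 38.8 and 30.1 CPM. This is the largest difference among the glycolysis members, a log2 fold change of -1.04 with an SE of 0.62 (edgeR unadjusted p = 0.0663). It rested on vehicle replicate 2, since the other 3 libraries spanned 30.1 to 43.1 CPM and the log2 fold change was -0.32 without that library.

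**Figure D3:**
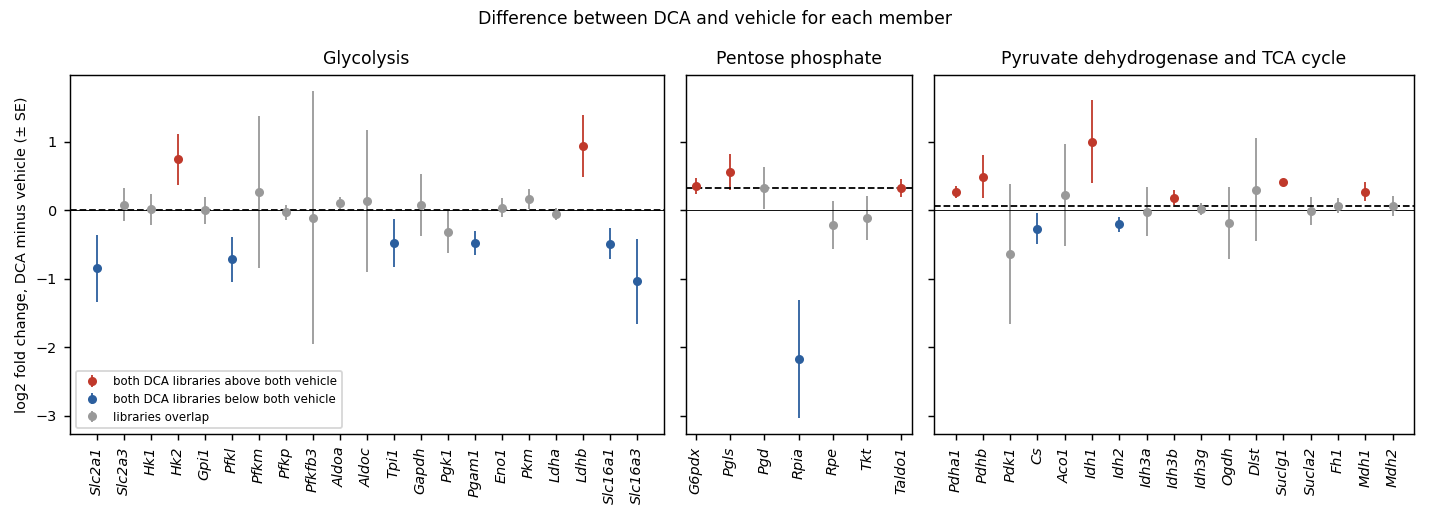
Log2 fold change (DCA minus vehicle, edgeR) of each member with ± SE (computed on log2(CPM + 1) from 2 libraries a treatment); red marks members whose DCA libraries both exceed vehicle, blue those whose DCA libraries are both lower, gray overlapping, and the dashed line is the median of the panel. Medians are -0.0056, 0.32 and 0.065, and most error bars outside the colored members cross 0.

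Pentose phosphate genes were divided. Of the 7 members 4 had a log2 fold change above 0 and 3 below, with a median of 0.32 and a range from -2.17 (Rpia) to 0.56 (Pgls). Each DCA library was above vehicle for G6pdx, Pgls and Taldo1 and below it for Rpia. These are 42.9% and 14.3% of the 7, beside 18.8% and 14.5% of all genes, and the smallest unadjusted edgeR p was 0.175. The median was 0.082 without vehicle replicate 2.

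The oxidative arm makes NADPH. G6pdx, its rate-setting dehydrogenase, was at 161, 135, 188 and 189.6 CPM, and the DCA libraries were level with each other and above vehicle. The log2 fold change was 0.35 with an SE of 0.12 (edgeR unadjusted p = 0.175), and the limma 95% interval was -0.20 to 0.91. Pgls, the lactonase, was at 5.98, 4.38, 6.52 and 8.74 CPM (log2 fold change 0.56, SE 0.26, edgeR unadjusted p = 0.576), and the gap between the highest vehicle and the lowest DCA library was small. Without DCA replicate 2 it was 0.33. Pgd, the second NADPH-making enzyme, was at 86.2, 60.0, 102 and 80.7 CPM. DCA replicate 2 lay within the vehicle range (log2 fold change 0.32, SE 0.31), and it was 0.082 without vehicle replicate 2.

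The non-oxidative arm interconverts pentoses with glycolytic sugars. Rpia, the ribose 5-phosphate isomerase, had 207, 121, 0 and 542 counts, or 5.65, 4.61, 0 and 2.26 CPM. Both DCA libraries were below vehicle, but the size of the difference turned on the library without a count, where up to 0.0928 CPM is allowed. The edgeR log2 fold change of -2.17 (SE 0.86, unadjusted p = 0.387) moved to -1.18 when that library, DCA replicate 1, was left out and to -10.35 when DCA replicate 2 was. The last value depends on the prior count of the fit, since only a library with 0 counts then stood for DCA. Rpe, the epimerase, was at 52.9 to 84.5 CPM with overlapping libraries (log2 fold change -0.22, SE 0.35), and its sign turned without vehicle replicate 1 (0.14). Tkt, transketolase, was at 233, 149.6, 178 and 173 CPM, where both DCA libraries lay between the vehicle libraries (log2 fold change -0.12, SE 0.32). Taldo1, transaldolase, the most abundant member per kilobase, was at 427, 509, 597 and 572 CPM, both DCA libraries higher (log2 fold change 0.32, SE 0.13, edgeR unadjusted p = 0.175). It was 0.18 without vehicle replicate 1.

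Pyruvate dehydrogenase and TCA genes differed by small amounts between treatments. Of the 17 members 11 had a log2 fold change above 0 and 6 below. The median was 0.065, beside 0.012 over all genes, with 15 members under 0.5 in size and a range from -0.64 (Pdk1) to 1.00 (Idh1). Over all genes, 6738 of the 11184 tested were under 0.5 in size. Both DCA libraries were above vehicle for 6 members (Pdha1, Pdhb, Idh1, Idh3b, Suclg1 and Mdh1) and below it for 2 (Cs and Idh2), the latter being 1 with total-count scaling, where the libraries of Cs overlapped. These are 35.3% and 11.8% of the 17, beside 18.8% and 14.5% of all genes. The smallest unadjusted edgeR p was 0.0764, for Suclg1. Leaving out vehicle replicate 2 gave a median of 0.18, and leaving out DCA replicate 2 gave 0.15.

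Pyruvate dehydrogenase links glycolysis to the cycle. Its catalytic subunit Pdha1 was at 87.1, 76.9, 99 and 98.9 CPM, with level DCA libraries above vehicle (log2 fold change 0.27, SE 0.089, edgeR unadjusted p = 0.336). Pdhb, its partner, was at 131, 184, 191 and 252 CPM (log2 fold change 0.49, SE 0.31, edgeR unadjusted p = 0.127), although DCA replicate 1 was barely above vehicle replicate 2. Without vehicle replicate 1 it was 0.25, and 10.5% of its windows occur in 1 other gene. Pdk1, the kinase that switches the complex off, was at 5.73, 8.38, 7.82 and 1.23 CPM. The low value of DCA replicate 2 set its log2 fold change of -0.64 (SE 1.02), which became 0.15 when it was left out and -2.52 when DCA replicate 1 was.

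Citrate synthase, aconitase and isocitrate dehydrogenase form the first part of the cycle. Cs was at 358, 329.7, 328 and 241 CPM (log2 fold change -0.27, SE 0.23), and vehicle replicate 2 and DCA replicate 1 were practically equal. Without DCA replicate 2 its log2 fold change was -0.066. Aco1, the cytosolic aconitase that also acts as an iron sensor, was at 27.4, 58.1, 67 and 32.4 CPM, with wide overlap (log2 fold change 0.22, SE 0.74), turning to -0.41 without DCA replicate 1. Idh1, the cytosolic NADP-dependent enzyme, was at 4.94, 4.19, 5.16 and 13 CPM. Its log2 fold change of 1.00 (SE 0.60, edgeR unadjusted p = 0.347) came from DCA replicate 2 and was 0.18 without it. Idh2, the mitochondrial NADP-dependent enzyme, was at 63.9, 55.5, 50.3 and 53.2 CPM (log2 fold change -0.21, SE 0.11), both DCA libraries being slightly lower. Without vehicle replicate 1 the difference was -0.12.

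The NAD-dependent isocitrate dehydrogenase that drives the cycle has 3 subunit genes. Idh3a, the catalytic subunit, was at 186, 267, 185 and 261 CPM, so that the replicates differed by more than the treatments (log2 fold change -0.022, SE 0.36). Idh3b was at 169.8, 169, 206 and 177 CPM, both DCA libraries higher (log2 fold change 0.18, SE 0.11), and 0.064 without DCA replicate 1. Idh3g stayed at 175 to 195 CPM (log2 fold change 0.018, SE 0.088).

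The 2-oxoglutarate dehydrogenase complex was represented by Ogdh and Dlst. Ogdh was at 212, 118, 178 and 112 CPM (log2 fold change -0.19, SE 0.53), and turned to 0.27 without vehicle replicate 1. Dlst was at 109, 38.2, 85.7 and 96.4 CPM, where vehicle replicate 2 stood apart (log2 fold change 0.30, SE 0.75), and it was -0.26 without that library. Succinyl-CoA ligase then makes a nucleoside triphosphate and succinate. Its shared subunit gene Suclg1 (chr6:73248505-73276907, plus strand) was at 542, 574, 733 and 753 CPM. Both treatments had tight replicates there, and the log2 fold change of 0.41 had the smallest SE of all members, 0.046 (edgeR unadjusted p = 0.0764, adjusted p = 0.998). The value was 0.35 to 0.45 with any library left out, and the limma 95% interval was -0.062 to 0.89. Sucla2, the subunit that gives ATP specificity, was at 83.6 to 112 CPM with overlapping libraries (log2 fold change -0.014, SE 0.21).

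Fumarase and malate dehydrogenase close the cycle. Fh1 was at 145, 147, 141 and 164 CPM, 3 libraries being nearly level (log2 fold change 0.065, SE 0.11). Mdh1, the cytosolic malate dehydrogenase of the malate-aspartate shuttle, was at 1006, 1212, 1295 and 1378 CPM, both DCA libraries higher (log2 fold change 0.27, SE 0.14, edgeR unadjusted p = 0.226), and 0.12 without vehicle replicate 1. Mdh2, the mitochondrial form, was at 1126, 1394, 1331 and 1302 CPM, with the DCA libraries between the vehicle libraries (log2 fold change 0.063, SE 0.15). Mdh2 had the highest level per kilobase in this group, 865 CPM per kb in vehicle.

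Alternative forms of 1 step were compared within each library, where library scaling cancels, as ratios of levels per kilobase of exon. Of 8 pairs 6 had libraries that did not overlap between treatments. For single-gene levels, 33.4% of all genes tested did not overlap. That share is of levels and not of ratios, and no share over other gene pairs was computed, so no excess is shown. With 2 libraries a treatment the exact two-sided permutation test cannot go below p = 0.333, so no pair could pass, and adjusted over the 8 pairs the smallest value was 0.444. Ldha exceeded Ldhb 219-fold and 142-fold in vehicle and 72.5-fold and 113-fold in DCA, a difference of the log2 ratio of -0.97 with an SE of 0.45. Ldha itself was nearly level, and the range of the difference was -1.28 to -0.65 with 1 library left out. Hk1 exceeded Hk2 4.47-fold and 3.35-fold in vehicle and 3.31-fold and 1.63-fold in DCA (difference -0.73, SE 0.55, and -0.22 without DCA replicate 2). Pfkl was below Pfkp in every library, at 0.398 and 0.535 of its level in vehicle and 0.301 and 0.283 in DCA (difference -0.66, SE 0.22).

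The ratio of Slc2a1 to Slc2a3 was 5.91 and 2.13 in vehicle and 1.98 and 1.92 in DCA (difference -0.87, SE 0.74), and almost all of the difference came from vehicle replicate 1, since it was -0.13 without that library. Idh1 had only 0.0546 and 0.0535 of the level of Idh2 in vehicle and 0.0725 and 0.173 in DCA (difference 1.05, SE 0.63, and 0.42 without DCA replicate 2). Mdh1 had 0.613 and 0.597 of the level of Mdh2 in vehicle and 0.668 and 0.726 in DCA. Its vehicle replicates were close (SD 0.028 on the log2 scale), and the difference of 0.20 (SE 0.063) was 0.14 to 0.26 with 1 library left out. The other pairs overlapped and had no stable sign. Aldoa to Aldoc differed by -0.19 (SE 1.07), and by 0.68 without vehicle replicate 1. Slc16a1 to Slc16a3 differed by 0.46 (SE 0.86), and by -0.36 without vehicle replicate 2.

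**Figure D4:**
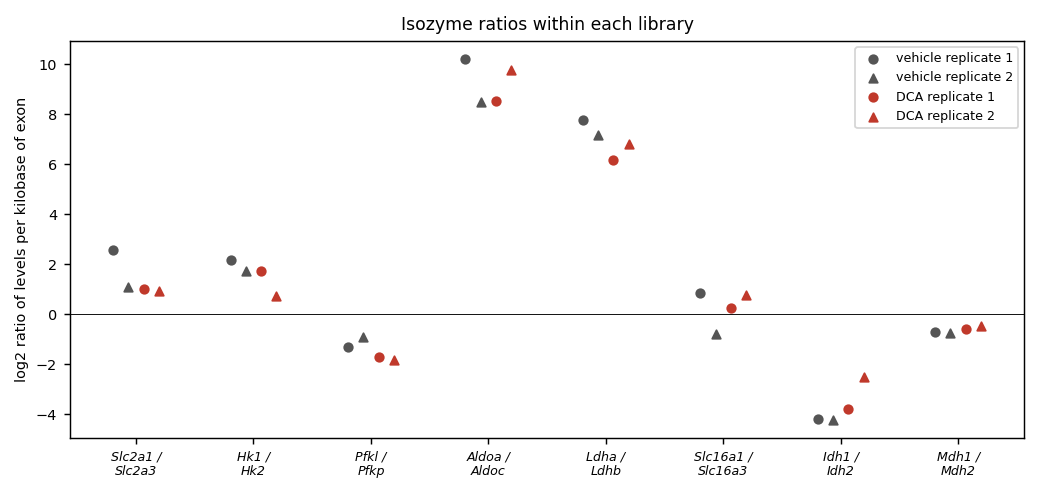
Log2 ratio of the levels per kilobase of exon of 8 pairs of alternative forms in each library (gray vehicle, red DCA; circles replicates 1, triangles replicates 2). Values above 0 mean that the first-named gene was higher. The ratio of Ldha to Ldhb lies at 7.78 and 7.15 in vehicle and 6.18 and 6.82 in DCA, and the Aldoa to Aldoc and Slc16a1 to Slc16a3 points interleave.

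The further genes of the same pathways, listed with results of these data already known, were described in the same way. Of 26 other glycolysis genes 13 could be tested, with 0 at an adjusted and 2 at an unadjusted p under 0.05 in edgeR, beside 0% and 4.27% of all genes. Pgm1, the phosphoglucomutase that leads to glycogen, was at 69.3, 60.4, 123 and 92.1 CPM, both DCA libraries higher (log2 fold change 0.73, SE 0.23, edgeR unadjusted p = 0.045). With 1 library left out it was 0.51 to 0.92. Bpgm, which makes 2,3-bisphosphoglycerate, was at 82.7, 82.2, 51.3 and 49.6 CPM, both DCA libraries lower with close replicates (log2 fold change -0.71, SE 0.023, edgeR unadjusted p = 0.0446). It stayed at -0.73 to -0.68 with 1 library left out. Of 9 other pentose phosphate genes 6 were tested and none reached an unadjusted edgeR p of 0.05. Of 26 other pyruvate dehydrogenase and TCA genes 23 were tested, with 0 at an adjusted and 1 at an unadjusted p under 0.05 in edgeR, beside the same 4.27% of all genes. That gene was Slc25a1, the mitochondrial citrate carrier, at 34.4, 35.9, 75.4 and 57.3 CPM, both DCA libraries higher (log2 fold change 0.92, SE 0.20, edgeR unadjusted p = 0.032). It was 0.70 to 1.10 with 1 library left out. Both DCA libraries were above vehicle for 10 of these 23 and below it for 2, beside 18.8% and 14.5% of all genes, with a median log2 fold change of 0.15. Of 9 near-identical copies of glycolysis genes 2 were tested, and neither reached an unadjusted edgeR p of 0.05.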

How the data were processed

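Full-length cDNA (SMART-Seq HT, Nextera XT libraries, paired reads) was sequenced from 2 vehicle and 2 DCA libraries. The submitters' processing notes name cutadapt 1.9 for trimming, HISAT2 2.2.1 for alignment and mm10 as the genome. The counting tool, annotation, strand setting and treatment of reads with several matches are not given in the sources used here. The deposited table holds whole-number counts per gene, although it is named for FPKM. Of its 27179 rows, 1275 have no symbol.

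The 11184 genes whose mean over the libraries reached 1 CPM were tested with edgeR 4.0.16 (quasi-likelihood test, TMM scaling, two-sided, Benjamini-Hochberg adjustment over all of them). All 45 members passed this filter. DESeq2 1.42.0, which the study's methods name, and limma 3.58.1 with a variance trend on log2(CPM + 1) were alternatives, beside other scalings, filters, a replicate block, thinning of DCA replicate 2 and leaving out each library. Isozyme ratios used exact permutation tests (scipy 1.17.1), a prior count of 0.5 and exon lengths from GENCODE. For each member, letters shared with other genes were counted over 100-base windows of its GENCODE transcript with the longest coding part. The limma 95% intervals are on the log2(CPM + 1) scale.

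Members and lists were chosen with earlier results of these data known. All members are named in pathway order. Values in every library are given for those that set or divert flux, for isozyme pairs, and for up to 3 members per direction and pathway with the largest difference among those whose libraries did not overlap, and further pathway genes are named at an unadjusted p under 0.05. Some marker genes are not reported here.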

Additional observations from a re-analysis of the deposited data

How the results depend on the processing

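No member reached an adjusted p under 0.05 with any scaling, filter or tool that used all 4 libraries. The smallest adjusted p of a member over these alternatives was 0.525 (DESeq2, Pfkl) followed by 0.603 (DESeq2, Suclg1), while over all genes DESeq2 called 126 and edgeR with no filter 36. The number of glycolysis members at an unadjusted p under 0.05 was 0 in edgeR as reported, 1 (Pfkl) with median-of-ratios size factors, with total-count scaling, with a mean of at least 5 CPM and with limma, 3 with no filter (Slc2a1, Pfkl and Slc16a3), and 4 with DESeq2 (Pfkl, Tpi1, Pgam1 and Slc16a3). For TCA members it was 0 and became 1 (Suclg1) with DESeq2. Over all genes the share at this threshold was 4.27% in edgeR as reported, 4.39% with median-of-ratios size factors, 4.31% with total-count scaling, 3.63% at 5 CPM, 4.64% with limma, 4.78% with no filter and 7.01% with DESeq2. Of TCA members, 1 was lower in both DCA libraries with total-count scaling, where the libraries of Cs overlapped, against 2 in the main analysis. Why the counts at an unadjusted p moved was not tested. The minimum of 5 CPM left 43 members. Scalings and filters moved the median over all genes between -0.022 and 0.072.

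Over the genes tested, the deviations of vehicle replicate 1 and DCA replicate 1 from their treatment means had a correlation of 0.0197. With 2 libraries a treatment, this value cannot show whether libraries of the same replicate number shared a mouse or culture. With the number as a replicate block, edgeR gave 1 glycolysis member (Pfkl) and 1 TCA member (Suclg1) at an unadjusted p under 0.05 (4.15% of all genes) and 0 at the adjusted threshold, and the log2 fold change of Rpia was -4.70.

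With 1 library left out, which leaves a treatment with 1 library and no call, the median log2 fold change ran from -0.17 to 0.046 for glycolysis, from 0.082 to 0.33 for pentose phosphate and from 0.064 to 0.18 for TCA genes. Of 538 single-member values over all alternatives, 533 moved by less than the combined replicate SD (the root of the summed variances of both treatments). The other 5 belonged to Pfkm, Pfkfb3, Rpia (2 values) and Pdk1. Leaving out 1 of 2 libraries shifts a log2 mean by less than that SD, so those values passed almost by construction. They cannot show that a difference is stable. Of the 358 values that used all 4 libraries, 357 stayed within the combined SD. With 2 libraries a treatment, 1 dose and 1 time, differences of the sizes listed could not be separated from the spread between libraries, and RNA levels do not measure enzyme activity or flux.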

Other observations

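Genes that connect these pathways to amino acids and to sugar storage were examined after the values of the members had been seen. Of 9 genes of the malate-aspartate shuttle and glutamine entry 8 could be tested in edgeR, with 0 at an adjusted and 0 at an unadjusted p under 0.05. Both DCA libraries were higher for 2 of them and lower for 3, beside 18.8% and 14.5% of all genes. Got1, the cytosolic aspartate aminotransferase, was at 84.2 and 92.3 CPM in vehicle and 152 and 109.8 CPM in DCA. Got2, its mitochondrial counterpart, was at 92.1 and 62.5 CPM in vehicle and 45.3 and 59.8 CPM in DCA. Their log2 fold changes were 0.57 (SE 0.24, edgeR unadjusted p = 0.0863) and -0.56 (SE 0.34, edgeR unadjusted p = 0.155). Without DCA replicate 1 that of Got1 was 0.31 and that of Got2 was -0.37, and without vehicle replicate 1 that of Got2 was -0.27.

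Of 12 genes of glycogen metabolism and the hexosamine branch 11 were tested, again with 0 at either threshold in edgeR, 2 higher and 3 lower in both DCA libraries (18.2% and 27.3% of the 11, beside 18.8% and 14.5% of all genes). The lower ones included glycogen synthase and a glycogen phosphorylase. Gys1, the synthase, was at 44.7 and 20.9 CPM in vehicle and 11.3 and 17.2 CPM in DCA (log2 fold change -1.20, SE 0.60, edgeR unadjusted p = 0.0778). Pygb, the brain form of the phosphorylase, was at 66.6 and 30.4 CPM in vehicle and 26.6 and 16.2 CPM in DCA (log2 fold change -1.18, SE 0.65, edgeR unadjusted p = 0.0645). In both genes vehicle replicate 1 was well above the other 3 libraries, and without it the log2 fold changes were -0.57 for Gys1 and -0.53 for Pygb.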
